A study of Mus musculus with 6 samples.

Results

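The E2F transcription factors and the retinoblastoma family of pocket proteins were followed in mouse thymocytes that lack Rpl22l1, which encodes a ribosomal protein closely related to RPL22. The 10 genes were found by symbol among the 34573 genes of the count table: E2f1, E2f2, E2f3, E2f4, E2f5, E2f7, E2f8, Rb1, Rbl1 and Rbl2. All 10 were present and all 10 passed the filter on low counts. E2F proteins bind the promoters of genes for DNA replication and mitosis, most of them as dimers with a DP protein. E2F1, E2F2 and E2F3 activate these genes, E2F4 and E2F5 mainly repress them, and E2F7 and E2F8 are atypical repressors that bind DNA without DP and limit E2F output late in S phase. The pocket proteins RB, p107 (Rbl1) and p130 (Rbl2) hold E2Fs in check until cyclin-dependent kinases phosphorylate them. E2F4 or E2F5 with p107 or p130 and the MuvB core form the DREAM complex, which keeps cell cycle genes off in quiescent cells. In the thymus these proteins bear on the double negative 3 (DN3) stage, where resting cells that have made a working T cell receptor beta chain start to divide.

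RNA was sequenced from sorted DN3 thymocytes (CD4-CD8-CD44-CD25+) of mice 6 to 8 weeks old, whose background mixed C57BL/6 with 129, and each group had 3 libraries. All mice carried a floxed Rpl22l1 gene (Rpl22l1f/f). The WT group had no Cre, and the L1 KO group carried Vav-Cre, which is active throughout the blood-forming system and not in DN3 cells alone. The series text pairs Cre with the genotypes the other way round, and the sample labels were followed. Cells were processed without culture. Reads counted to genes numbered 13887672 to 28128186 per library. Levels are CPM, read counts scaled to a common library size after TMM normalization, and means are given ± SD of 3 libraries.

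Rpl22l1 served as the check of the labels. It stood at 86.3, 123.2 and 118 CPM in WT 1 to 3 and at 18.6, 20.0 and 26.1 CPM in KO 1 to 3, so every library matched its label. It fell by 2.35 ± 0.18 (SE) on the log2 scale (adjusted p = 0.00103). The DN3 markers Il2ra (CD25), Ptcra, Cd3e, Rag1, Rag2, Notch1, Notch3 and Dtx1 summed to 5733 to 6579 CPM per library. In KO the level was 1.76 times that of WT for Dtx1 and 1.235 times for Il2ra. For Notch3, Rag1 and Rag2 it was 0.799, 0.779 and 0.762 times. None of the 8 passed an adjusted p of 0.05, though 5 had an unadjusted p under 0.05, beside 23.4% of all tested genes. With the replicate number as a block, Dtx1 and Il2ra passed as higher and Notch3 and Rag1 as lower (adjusted p from 1.925e-05 to 0.00543). Of all tested genes 9.96% and 10.3% did so. Cd4, Cd8a, Cd8b1 and Cd44, which the sort selects against, summed to 6.11 to 11.1 CPM. Of these, Cd44 stood at 1.52 ± 0.383 CPM in WT and 3.325 ± 1.57 CPM in KO (adjusted p = 0.141, or 0.0116 with the block). The 5 B lineage markers summed to at most 0.798 CPM, and Ms4a1 and Pax5 among them had 0 reads in every library, where 3 reads amount to at most 0.216 CPM. Summed levels were 24.1 to 31.2 CPM for 5 myeloid markers and 30.3 to 41.2 CPM for 4 NK and innate lymphoid markers, nearly all of the latter from Nkg7, while Ncr1 had 0 reads. Dendritic markers, of which 2 of 4 tested fell, summed to 8.46 to 10.6 CPM in WT and 4.20 to 5.93 CPM in KO, and 4 erythroid markers to 3.001 to 5.90 and 0.805 to 3.70 CPM. Early progenitor markers summed to 51.9 to 66.8 CPM in WT and 31.0 to 40.4 CPM in KO, most of it Kit and Bcl11a. These were the 2 of 5 tested that fell. Lyl1, Hhex and Mef2c had log2 fold changes of 1.16 ± 0.41, 0.52 ± 0.37 and 0.001 ± 0.41 and did not pass. Their KO means were 0.899, 0.707 and 3.07 CPM. Over all tested genes 2.43% were called lower in KO. Of the thymic epithelial markers, Epcam accounted for nearly all of 46.7 to 63.1 CPM in WT and 30.8 to 35.1 CPM in KO, and Foxn1 had at most 2 reads in a library. The part of these marker differences in the results for the family was not tested.

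Promoter sequence is shown for 4 of the 10 genes, because some E2F and pocket protein genes are themselves E2F targets. RefSeq windows of GRCm38.p6, running from 250 bases before to 50 bases after an annotated start, were matched for 7 of the 10 genes. They were searched on both strands for the E2F words TTTCCCGC, TTTCGCGC, TTTGCCGC and TTTGGCGC and for the words of the cell cycle genes homology region (CHR), TTTGAA and TTCGAA, to which the MuvB core binds. In the windows below, read 5′ to 3′ on the strand of the gene, capitals mark the matches. In E2f3 (chr13:29986014-29986313, minus strand) the first capitals are a CHR word and the next an E2F word on the opposite strand. In E2f7 (chr10:110745189-110745488, plus strand) and Rbl1 (chr2:157204485-157204784, minus strand) they are E2F words, on the opposite strand in E2f7 and on the strand of the gene in Rbl1, and in E2f8 (chr7:48881547-48881846, minus strand) a CHR word on the opposite strand.
E2f3: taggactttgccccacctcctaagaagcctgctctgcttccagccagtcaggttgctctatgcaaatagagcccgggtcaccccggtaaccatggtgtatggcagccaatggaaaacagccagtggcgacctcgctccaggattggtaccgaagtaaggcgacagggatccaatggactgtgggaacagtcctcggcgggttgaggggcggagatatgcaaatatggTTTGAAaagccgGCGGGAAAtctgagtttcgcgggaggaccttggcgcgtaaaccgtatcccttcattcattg
E2f7: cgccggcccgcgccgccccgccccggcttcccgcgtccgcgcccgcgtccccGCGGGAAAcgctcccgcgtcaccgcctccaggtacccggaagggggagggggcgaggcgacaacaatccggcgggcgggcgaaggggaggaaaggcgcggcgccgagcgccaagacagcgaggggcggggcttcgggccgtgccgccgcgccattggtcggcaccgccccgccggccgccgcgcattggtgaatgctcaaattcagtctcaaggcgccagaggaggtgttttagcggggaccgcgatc
E2f8: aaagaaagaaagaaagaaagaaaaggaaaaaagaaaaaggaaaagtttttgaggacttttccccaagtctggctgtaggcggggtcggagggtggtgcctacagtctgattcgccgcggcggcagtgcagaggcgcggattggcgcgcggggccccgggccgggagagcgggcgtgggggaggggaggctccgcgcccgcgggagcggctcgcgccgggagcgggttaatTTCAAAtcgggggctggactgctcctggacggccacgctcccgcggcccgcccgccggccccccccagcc
Rbl1: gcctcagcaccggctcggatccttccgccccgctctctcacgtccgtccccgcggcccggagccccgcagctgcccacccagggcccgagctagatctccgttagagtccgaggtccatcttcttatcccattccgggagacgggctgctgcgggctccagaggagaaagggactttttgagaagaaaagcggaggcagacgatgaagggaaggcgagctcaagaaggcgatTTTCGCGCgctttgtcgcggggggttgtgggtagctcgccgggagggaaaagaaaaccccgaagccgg

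Of the 7 matched genes, 4 held an E2F word (E2f2, E2f3, E2f7 and Rbl1) and 4 held a CHR word (E2f2, E2f3, E2f8 and Rbl2). The E2f1 window, which held neither, is chr2:154569377-154569676 on the minus strand, inside the annotated gene (chr2:154559407-154569892). Sequence upstream of that gene was therefore not searched for E2f1. Over all 27025 genes with a window the shares were 2.61% for E2F words and 21.7% for CHR words. Counted from the annotated start, the E2F word of Rbl1 spans bases −18 to −11 and that of E2f3 bases −11 to −4. The CHR word of E2f8 spans bases −20 to −15, and the E2F word of E2f7 lies farther out, at −198 to −191. No E2F word overlapped a CHR word in these 7 genes. A match is a run of letters and not evidence of binding.

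**Figure D1:**
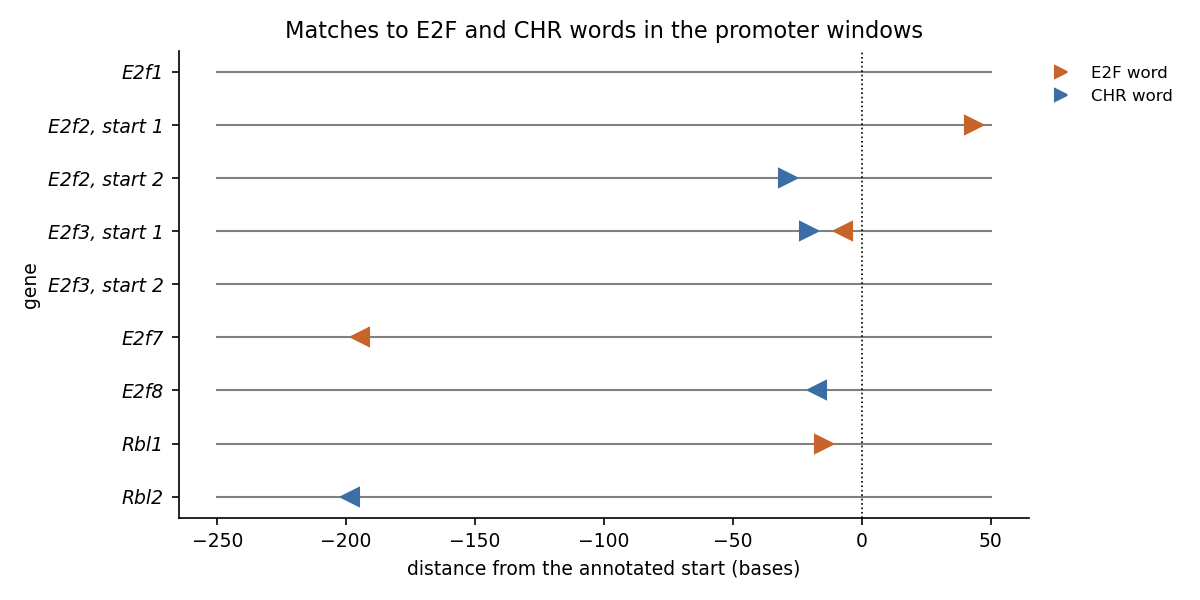
Positions of E2F words (orange) and CHR words (blue) in the promoter windows of the 7 matched genes, as distance from the annotated start in bases on the horizontal axis; arrowheads give the strand of the match relative to the gene. Matches of E2f3, E2f8 and Rbl1 lie just before the start, whereas those of E2f7 and Rbl2, at −198 to −191 and −201 to −196, lie far from it. The E2f1 window lies inside the annotated gene.

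Among the 10 genes, Rb1 rose in the KO libraries and 9 did not pass an adjusted p of 0.05, taken from edgeR over all 13729 tested genes. Across all tested genes 4.57% passed in either direction, 2.14% as higher and 2.43% as lower in KO, so 1 gene of 10 is too few to read against that share. With the replicate number as a block, 3 of 10 rose (Rb1, E2f8 and Rbl1) and none fell, beside 20.3% of all tested genes called, 9.96% higher and 10.3% lower. Without both number 1 libraries the same 3 passed, beside 21.0% of all genes tested there. The log2 fold change was positive for 8 of the 10 genes, with a median of 0.10, against 48.8% positive and a median of −0.0070 over all tested genes. The KO and WT libraries did not overlap for 2 of the 10 genes, Rb1 and E2f8, beside 28.4% of all tested genes in either direction and 13.8% with KO higher. At an unadjusted p under 0.05 there were 3 of 10, against 23.4% overall. DESeq2 and limma-voom each called 1 of the 10, Rb1, beside 8.90% and 3.89% of all tested genes.

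**Figure D2:**
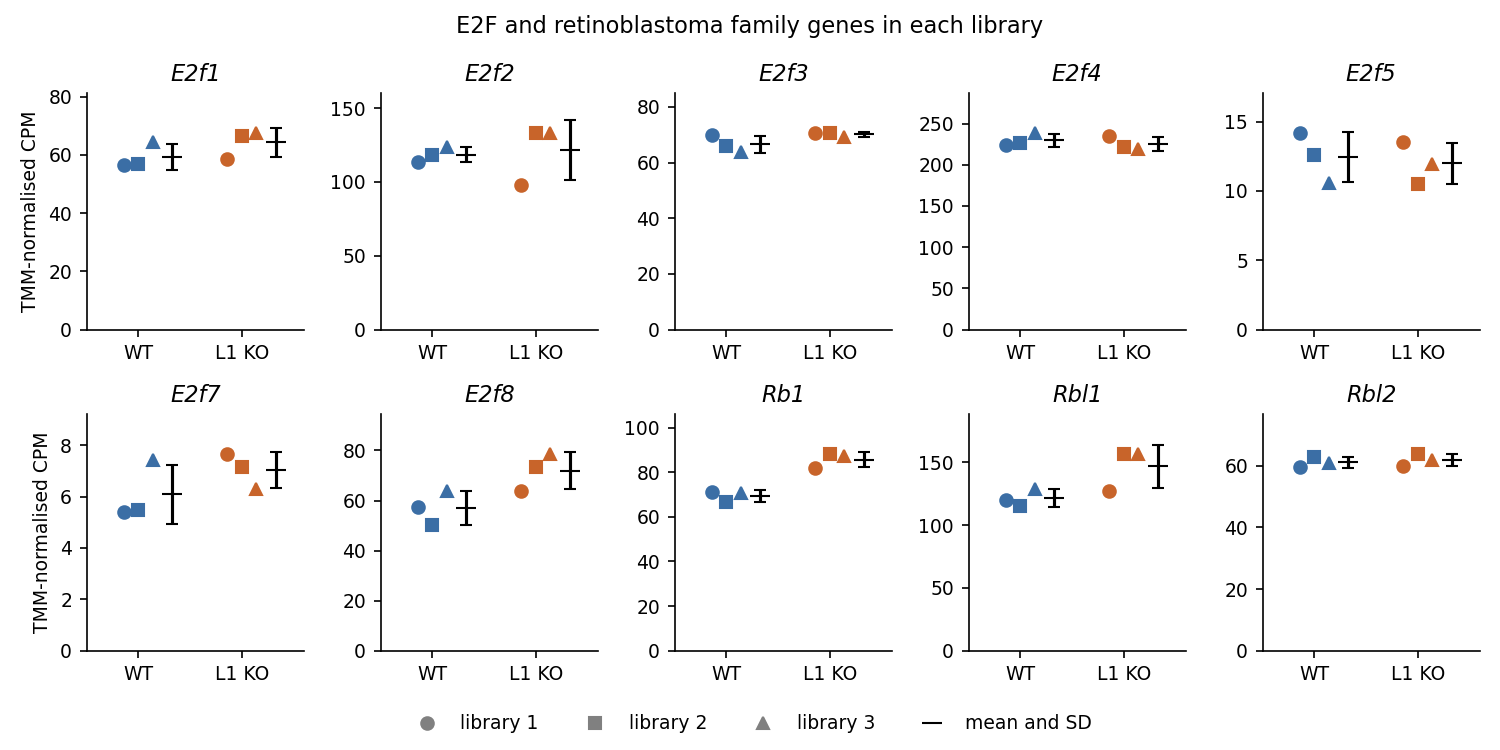
TMM-normalised CPM of each gene in the 3 WT (blue) and 3 L1 KO (orange) libraries; symbols give the library number and the bars the mean and SD. Rb1 and E2f8 have every KO library above every WT library, and in E2f2, E2f8 and Rbl1 the KO 1 library is the lowest of its group.

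Rb1 encodes RB, the pocket protein that restrains the activator E2Fs. It lies on chr14:73183673-73325822 on the minus strand of GRCm38 (ENSMUSG00000022105.6). Its level was 71.2, 66.4 and 70.5 CPM in WT 1 to 3 and 81.8, 88.2 and 87.1 CPM in KO 1 to 3. Every KO library lay above every WT library. The means were 69.4 ± 2.58 and 85.7 ± 3.44 CPM, a KO level 1.24 times that of WT. On the log2 scale Rb1 rose by 0.30 ± 0.07 (SE, 95% interval 0.16 to 0.45; adjusted p = 0.0339). With the replicate block the log2 fold change was again 0.30, with an adjusted p of 0.00543. The call was lost when WT 1, WT 2, WT 3, KO 2 or KO 3 was left out, with adjusted p from 0.0525 to 0.154, while the log2 fold change stayed between 0.27 and 0.34 over the 6 omissions; without KO 1 the adjusted p was 0.0106.

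Several genes overlap Rb1 on the genome, and the strand setting of the counting is not given. Reads from an overlap may therefore have been counted to the other gene or left out as ambiguous. Lpar6, a lysophosphatidic acid receptor gene annotated within the Rb1 locus on the opposite strand, fell from 43.3 ± 1.71 to 27.6 ± 1.09 CPM. Its log2 fold change was −0.65 ± 0.07, with an adjusted p of 0.00226. Rcbtb2, also on the opposite strand, stood at 69.8 ± 3.91 and 62.8 ± 3.75 CPM in WT and KO and did not pass (adjusted p = 0.253). The antisense-class transcript Gm17233, on the same strand, had a log2 fold change of −0.17 ± 0.13. All 3 thus had log2 fold changes opposite in sign to that of Rb1. The log2 ratio of Rb1 to Lpar6 within a library, a ratio chosen after its values were seen, was 0.68 ± 0.09 in WT and 1.63 ± 0.07 in KO. Its groups did not overlap, and the two-sided exact permutation p of 0.1 is the smallest that 3 libraries against 3 allow.

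Rbl1 encodes p107, the pocket protein that is itself made under E2F control in dividing cells, and lies on chr2:157145893-157204534 on the minus strand. Its level was 120, 115 and 129 CPM in WT 1 to 3 and 127, 157 and 156 CPM in KO 1 to 3. KO 1 lay below WT 3, and the other KO libraries lay above all WT libraries. The log2 fold change was 0.27 ± 0.09, with an adjusted p of 0.106. With the replicate block it was 0.27 ± 0.07, with an adjusted p of 0.0175, and without KO 1 it was 0.37, with an adjusted p of 0.00751.

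Rbl2 encodes p130, the pocket protein typical of quiescent cells, and lies on chr8:91070057-91123844 on the plus strand. Its level was 59.6, 62.9 and 60.9 CPM in WT and 59.9, 63.9 and 61.9 CPM in KO. The groups covered nearly the same range. The log2 fold change was 0.02 ± 0.06, with an adjusted p of 0.893 and a 95% interval from −0.13 to 0.16. Within a library the log2 ratio of Rb1 to Rbl2, a ratio also chosen after its values were seen, was 0.18 ± 0.09 in WT and 0.47 ± 0.02 in KO, without overlap, at an exact permutation p of 0.1. Rbl2 made up 20.3% ± 1.10 of the summed pocket gene level per exon length in WT and 17.5% ± 0.924 in KO, Rb1 28.9% ± 0.736 and 30.4% ± 1.20, and Rbl1 50.8% ± 1.18 and 52.1% ± 2.12.

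Among the activators, E2f1, which drives both S phase entry and cell death, lies on chr2:154559407-154569892 on the minus strand. It stood at 56.4, 57.0 and 64.4 CPM in WT and 58.7, 66.5 and 67.5 CPM in KO. KO 1 lay within the WT range and the other KO libraries lay above it. The log2 fold change was 0.12 ± 0.08, with an adjusted p of 0.435 and a 95% interval from −0.07 to 0.31. E2f2, on chr4:136172394-136196057 on the plus strand, encodes an activator that in mice also restrains T cell proliferation. It stood at 113, 118 and 124 CPM in WT and 97.9, 133 and 133 CPM in KO. KO 1 lay below all WT libraries and the other KO libraries above them, so that the KO SD was 20.3 CPM against 5.06 in WT. The log2 fold change was 0.03 ± 0.12, with an adjusted p of 0.890. E2f3, on chr13:29906575-29986063 on the minus strand, makes an activator and a shorter isoform from a second start, which gene counts do not separate. It stood at 69.9, 65.8 and 63.8 CPM in WT and 70.6, 70.7 and 69.1 CPM in KO. The groups overlapped only through WT 1, and the log2 fold change was 0.08 ± 0.06, with an adjusted p of 0.505.

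Of the repressors, E2f4, on chr8:105297663-105305370 on the plus strand, encodes the main E2F of the DREAM complex. It stood at 224, 226 and 239 CPM in WT and 235, 222 and 219 CPM in KO. The groups overlapped, and the log2 fold change was −0.03 ± 0.06, with an adjusted p of 0.829 and a 95% interval from −0.17 to 0.11. E2f5, on chr3:14578641-14606309 on the plus strand, stood at 14.2, 12.6 and 10.6 CPM in WT and 13.5, 10.5 and 11.9 CPM in KO. The WT and KO ranges overlapped widely, and the log2 fold change was −0.06 ± 0.14, with an adjusted p of 0.846. Its exons overlap those of 1810022K09Rik on the opposite strand, which had a log2 fold change of 0.09 ± 0.15.

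The atypical genes differed in level and in precision. E2f8, on chr7:48866429-48881596 on the minus strand, stood at 57.2, 50.1 and 63.7 CPM in WT 1 to 3 and 63.8, 73.5 and 78.6 CPM in KO 1 to 3. The groups did not overlap, by a margin of KO 1 over WT 3 that is small beside the SDs of 6.78 and 7.53 CPM. The log2 fold change was 0.33 ± 0.11, the largest among the 10 genes, with an adjusted p of 0.102. With the replicate block it was 0.34 ± 0.08, with an adjusted p of 0.00952, and without KO 1 the adjusted p was 0.0208. Exons of Gm2788, on the opposite strand, overlap those of E2f8, and its log2 fold change was 0.22 ± 0.14, with an adjusted p of 0.378. E2f7, on chr10:110745439-110787384 on the plus strand, had 86 to 197 reads per library, and stood at 5.41, 5.46 and 7.43 CPM in WT and 7.66, 7.15 and 6.29 CPM in KO. The groups overlapped through WT 3, and the 95% interval of the log2 fold change ran from −0.16 to 0.59, which includes the value of E2f8. At 86 reads the counting error alone is 10.8%, against 1.28% at the 6117 reads of E2f4 in KO 2.

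**Figure D3:**
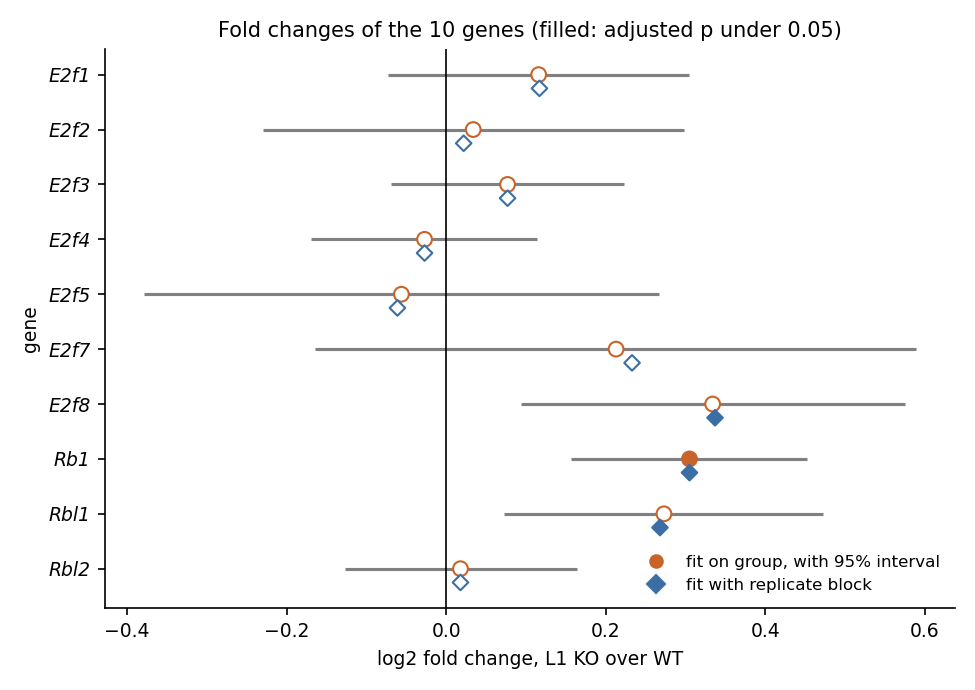
Log2 fold change of L1 KO over WT for each gene, from the fit on group with its unadjusted 95% interval (circles, grey lines) and from the fit with the replicate block (diamonds); filled symbols passed an adjusted p of 0.05. Rb1 is filled in both fits and E2f8 and Rbl1 in the fit with the block only, while Rbl2, E2f2 and E2f4 lie within 0.04 of 0.

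Levels of different genes were compared per kilobase of annotated exon. In WT, E2f4 was highest at 93.7 ± 3.21 CPM per kb, followed by E2f2 at 24.3 ± 1.04, Rbl1 at 20.3 ± 1.16 and E2f1 at 18.8 ± 1.41. E2f3, Rb1 and E2f8 followed at 12.3 ± 0.573, 11.5 ± 0.428 and 10.5 ± 1.25 CPM per kb. Rbl2 and E2f5 stood at 8.09 ± 0.219 and 6.99 ± 1.01, and E2f7 was lowest at 0.677 ± 0.128. The WT libraries overlapped between the neighbours Rbl1 and E2f1, E2f3 and Rb1, Rb1 and E2f8, and Rbl2 and E2f5, so the order within those neighbours is not resolved. With the longest transcript as the length, E2f8 and Rb1 came before E2f3. The repressors made up 60.3% ± 0.572 of the summed E2F level per exon length in WT and 57.8% ± 3.42 in KO, most of it E2f4, and the activators 33.1% ± 0.245 and 34.0% ± 2.81. The atypical genes made up 6.66% ± 0.617 and 8.19% ± 0.653, with every KO library, from 7.49% to 8.79%, above every WT library, from 6.01% to 7.23%. Most of it was E2f8, at 6.26% ± 0.571 and 7.74% ± 0.704. E2f7 made up 0.404% ± 0.0623 and 0.458% ± 0.0510, and its groups overlapped.

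**Figure D4:**
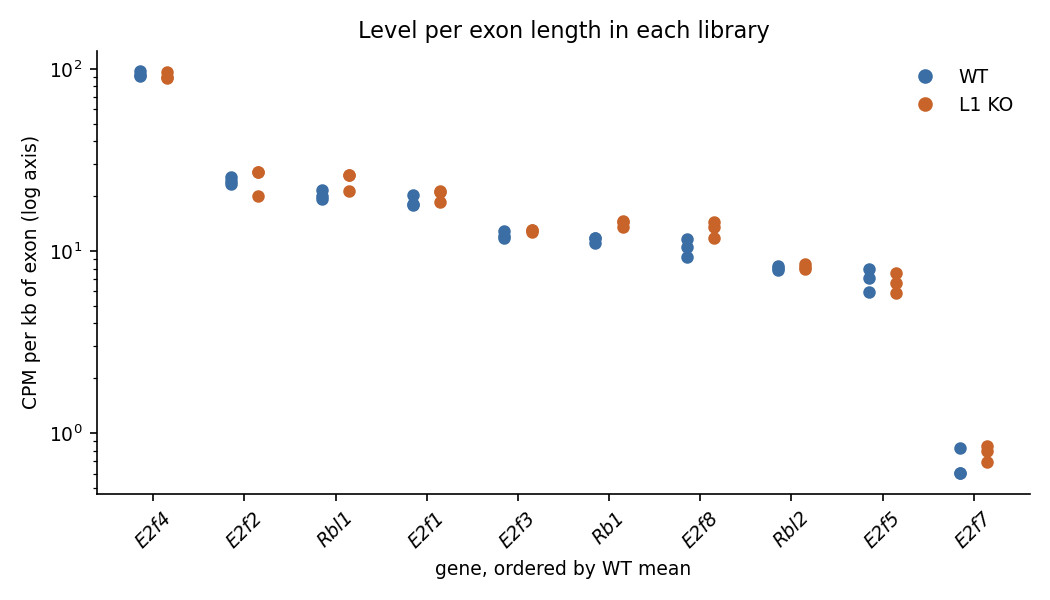
CPM per kilobase of annotated exon on a log axis for each gene in each WT (blue) and L1 KO (orange) library, ordered by WT mean. E2f4 stands above all others and E2f7 below them, and the remaining 8 genes lie between 5.91 and 27.3 CPM per kb.

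The partners of the family were taken from a list of 10 genes: the DP genes, E2f6, the MuvB core, and its partners Mybl2 and Foxm1. None passed in edgeR, although 7 had an unadjusted p under 0.05 and DESeq2 called 3, beside 23.4% and 8.90% of all tested genes. Under the replicate block 6 passed, 5 of them higher in KO, beside 20.3% and 9.96% of all tested genes. The DP genes differed in sign. Tfdp1, which encodes DP1, stood at 309 ± 9.15 and 364 ± 13.7 CPM in WT and KO, a log2 fold change of 0.23 ± 0.06, with an adjusted p of 0.0710, or 0.0129 with the block. Tfdp2 stood at 76.2 ± 6.39 and 60.7 ± 3.28 CPM, a log2 fold change of −0.33 ± 0.08, with an adjusted p of 0.0534, or 0.00874 with the block. Neither gene's groups overlapped. The log2 ratio of Tfdp1 to Tfdp2 within a library, chosen after its values were seen, was 1.88, 2.01 and 2.18 in WT and 2.71, 2.53 and 2.51 in KO, at the smallest possible exact permutation p of 0.1.

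Of the other partners, Foxm1, which activates mitotic genes, stood at 89.7 ± 15.2 and 120 ± 11.3 CPM in WT and KO (log2 fold change 0.42 ± 0.12, adjusted p = 0.0904, or 0.00765 with the block). Mybl2, which joins MuvB when cells enter the cycle, had a log2 fold change of 0.25 ± 0.09, with an adjusted p of 0.129, or 0.0247 with the block. In the MuvB core the log2 fold change was 0.18 ± 0.07 for Rbbp4, 0.26 ± 0.09 for Lin54, 0.16 ± 0.08 for Lin9, −0.03 ± 0.10 for Lin52 and −0.28 ± 0.11 for Lin37. With the block, Rbbp4 and Lin54 passed, at adjusted p of 0.0301 and 0.0492. E2f6, a repressor that acts with Polycomb proteins and without pocket proteins, had −0.10 ± 0.09, with an adjusted p of 0.545.

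Upstream of the pocket proteins, none of 9 cyclins and kinases passed in edgeR, with a median log2 fold change of 0.12. At an unadjusted p under 0.05 there were 4, and DESeq2 called 2, Ccnd2 and Ccnd3, beside 23.4% and 8.90% of all tested genes. With the block 4 passed, 2 in each direction, beside 9.96% of all tested genes higher and 10.3% lower. The D-type cyclins, which direct CDK4 and CDK6 to the pocket proteins, differed in direction. Ccnd2 stood at 281 ± 13.6 and 221 ± 37.5 CPM in WT and KO, a log2 fold change of −0.35 ± 0.11, with an adjusted p of 0.106, or 0.00372 with the block. Ccnd3, the D cyclin required for the expansion after beta-selection, stood at 247 ± 24.1 and 306 ± 7.49 CPM, a log2 fold change of 0.31 ± 0.08, with an adjusted p of 0.0592, or 0.00624 with the block. The log2 ratio of Ccnd3 to Ccnd2 was −0.12, −0.30 and −0.16 in WT and 0.18, 0.62 and 0.65 in KO, a ratio chosen after its values were seen, with an exact permutation p of 0.1.

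Cdk6 stood at 451 ± 56.4 and 367 ± 54.3 CPM, with an adjusted p of 0.189, or 0.00273 with the block, and Cdk4 at 409 ± 12.1 and 417 ± 7.09 CPM. Ccne1, a cyclin of S phase entry and an E2F target, had a log2 fold change of 0.34 ± 0.12, with an adjusted p of 0.129, or 0.0345 with the block. Ccne2, Cdk2 and Cdc25a had 0.17 ± 0.13, 0.13 ± 0.08 and 0.12 ± 0.08, and Ccnd1 was low, at 2.39 ± 0.0915 and 1.93 ± 0.412 CPM. Of 7 CDK inhibitor genes 4 passed the count filter, and none of these passed the test in edgeR at an adjusted or an unadjusted p of 0.05, nor in DESeq2. Cdkn1a, which encodes p21, a p53 target, had 0.23 ± 0.18 and Cdkn2c, which encodes p18 and binds CDK4 and CDK6, 0.37 ± 0.23. Both passed as higher with the block, at adjusted p of 0.0428 and 0.0471, beside 9.96% of all tested genes. Cdkn1b had −0.01 ± 0.14 and Cdkn2d 0.16 ± 0.09. Cdkn2a had 2, 0 and 3 reads in WT and 0 in each KO library, Cdkn2b 1 read over all libraries, and Cdkn1c 4 to 14 reads per library.

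Downstream, 3 of 40 E2F target genes of G1/S and replication rose and none fell, a share of 7.50% beside 4.57% of all tested genes. The median log2 fold change was 0.24 and 37 of 40 were positive. Cdt1, which loads the replicative helicase, rose by 0.30 ± 0.07 (adjusted p = 0.0415), and Mcm3, a subunit of that helicase, by 0.32 ± 0.08 (adjusted p = 0.0492) on the log2 scale. Mcm10 had 0.32 ± 0.08, with an adjusted p of 0.0551, or 0.00550 with the block. With library size as the only scaling, Cdt1 and Mcm3 did not pass (adjusted p = 0.0554 and 0.0533), and the list had 1 gene higher and 1 lower. With limma-voom they had adjusted p of 0.0586 and 0.0548. With the block 29 were higher and 1, Gins2, was lower, beside 9.96% and 10.3% of all tested genes. No member passed when WT 1, WT 2, KO 2 or KO 3 was left out and 1 without WT 3, against 27 without KO 1. Over all genes tested there, 2177 passed without KO 1 and 109 to 415 under the other single omissions. Windows were matched for 30 of these genes, and 13 of them, 43.3%, held an E2F word, beside 2.61% of all genes with a window. As the list is of E2F targets, a high share may follow from its choice.

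Of 30 late cell cycle genes known to be bound by the DREAM complex, 8 rose and none fell, a share of 26.7% beside 4.57% of all tested genes. All 30 had a positive log2 fold change, from 0.27 to 0.66, with a median of 0.44. Cdc25b, a phosphatase that opens mitosis, rose from 63.4 ± 3.16 to 97.4 ± 9.33 CPM (log2 fold change 0.62 ± 0.08, adjusted p = 0.00581). Ect2, a regulator of cytokinesis, rose from 73.9 ± 5.76 to 115 ± 12.3 CPM (0.64 ± 0.09, adjusted p = 0.00794), Ube2c by 0.55 ± 0.10 (adjusted p = 0.0202) and the kinetochore gene Ndc80 by 0.66 ± 0.12 (adjusted p = 0.0227). Windows were matched for 25 of them, and 20, or 80.0%, held a CHR word, while 1 held an E2F word. Over all genes with a window the shares were 21.7% and 2.61%. The list holds genes bound by DREAM, whose MuvB core binds CHR words, so a high CHR share may follow from its choice. With the block 27 were higher, beside 9.96% of all tested genes. The count was 1 to 3 when any WT library, KO 2 or KO 3 was left out, and 29 when KO 1 was. Over all genes tested there, the same omissions gave 109 to 415 and 2177. Cdc25b kept its call under each omission, and Ect2 lost its call when WT 2 was left out (adjusted p = 0.0568). Ube2c lost it without WT 1, WT 2, KO 2 or KO 3 (adjusted p from 0.0572 to 0.111), and Ndc80 without any library but KO 1 (adjusted p from 0.0527 to 0.123). The summed level of the 30 genes was 3859 to 4451 CPM in WT and 4652 in KO 1, against 5927 and 6084 in KO 2 and KO 3. KO 1 was thus the lowest KO library here, as it was for Rb1, Rbl1, Rbl2, E2f1, E2f2 and E2f8. For E2f4, E2f5 and E2f7 it was the highest KO library, and for E2f3 the lowest was KO 3.

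Of 12 death genes described as E2F1 targets 10 were tested and 3 rose, beside 2.14% of all tested genes: Pmaip1, which encodes Noxa, from 1.152 ± 0.350 to 13.3 ± 1.79 CPM, Bbc3, which encodes Puma, from 4.53 ± 0.654 to 17.95 ± 3.55 CPM, and Apaf1, the scaffold of the apoptosome, from 67.8 ± 4.52 to 87.6 ± 0.660 CPM. Their log2 fold changes were 3.53 ± 0.22, 1.99 ± 0.17 and 0.37 ± 0.07, with adjusted p of 8.95e-05, 0.000582 and 0.0207. Apaf1 lost its call when WT 2, WT 3, KO 2 or KO 3 was left out (adjusted p from 0.0635 to 0.103). All 3 are also textbook targets of p53. The remaining members did not pass. Trp53bp2, a member of the ASPP family, had the smallest p of these, at a log2 fold change of −0.27 ± 0.08 (adjusted p = 0.0926), and passed as lower with the block (adjusted p = 0.0181). Trp73 and Hrk had 0 to 2 reads per library. Of 10 chromatin cofactors that bind pocket proteins 1 fell, beside 2.43% of all tested genes, and 1 gene of 10 is too few to read against that share. This was Smarca4, the BRG1 ATPase of SWI/SNF remodelling, from 915 ± 31.8 to 730 ± 5.82 CPM (log2 fold change −0.33 ± 0.07, adjusted p = 0.0304). Its call held when KO 1 was left out and was lost on omission of any other library, with adjusted p from 0.0578 to 0.140. Hdac1, Hdac2, Sin3a and Rbbp7 had log2 fold changes between 0.01 and 0.13, Sin3b had −0.06 ± 0.06 and Kdm5a −0.09 ± 0.09, and none of them passed. Rbbp8 (0.32 ± 0.09), Suv39h1 (0.21 ± 0.07) and Arid4a (−0.18 ± 0.06), next by p, did not pass either, and with the block had adjusted p of 0.00966, 0.0220 and 0.0467.

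**Figure D5:**
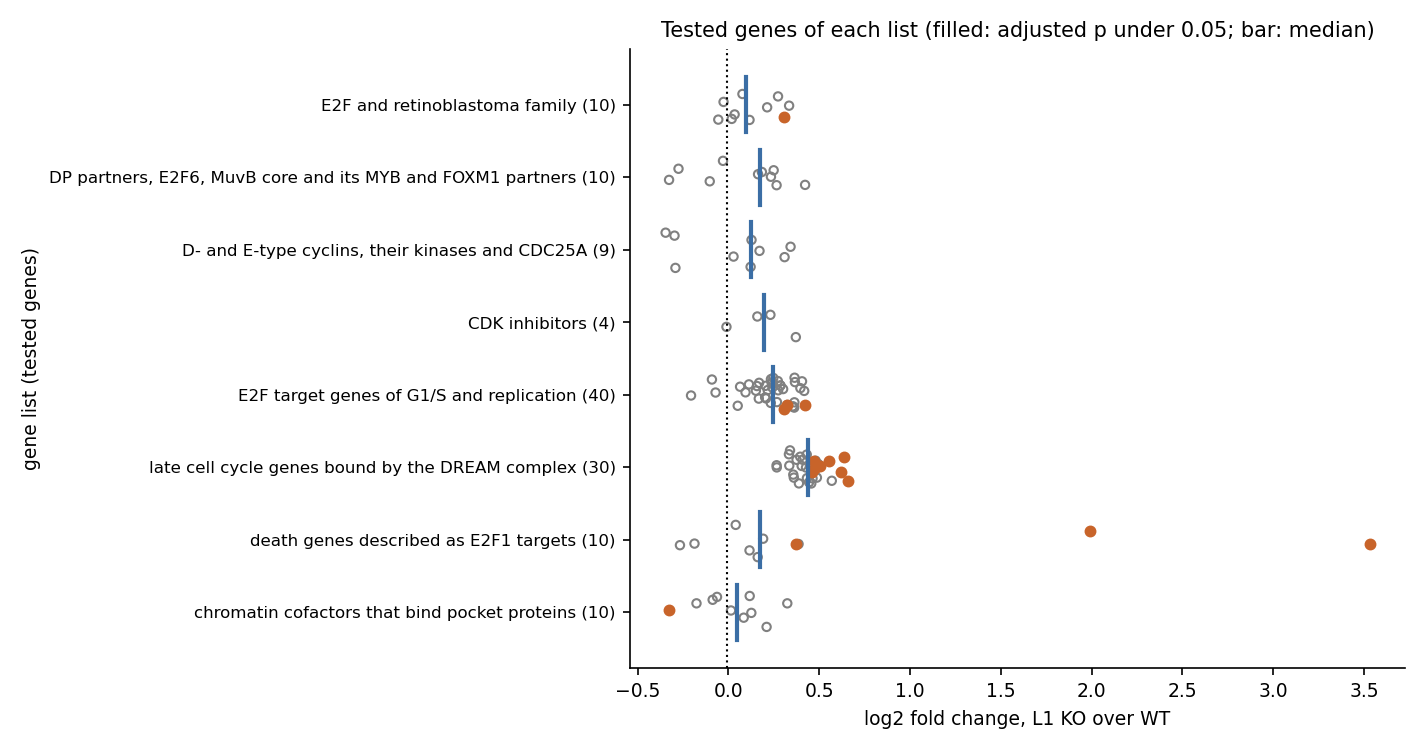
Log2 fold changes of the tested genes of each list; filled points passed an adjusted p of 0.05, blue bars give the list's median and the dotted line the median of all tested genes, −0.0070. The late cell cycle genes all lie above 0, the E2F and retinoblastoma family lies between −0.06 and 0.33, and the filled points farthest to the right are Pmaip1 and Bbc3.

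Some markers of cells that have passed beta-selection and divide (DN3b) were also higher in KO. Of 11 such genes 4 rose, Cd2, Cd28, Slc3a2 and Lef1, beside 2.14% of all tested genes, and 7 did not pass. Among these 7, Cd27, Egr1 and Egr3 had negative log2 fold changes of −0.20 ± 0.08, −0.05 ± 0.32 and −0.33 ± 0.43, and Cd27 passed as lower with the block (adjusted p = 0.0189). The summed level of the 11 genes was 908 to 1017 CPM in WT and 1144 to 1181 CPM in KO. The part of a change in the share of such cells in the results for Rb1, E2f8, Rbl1 and their targets was not tested, and in bulk RNA a change in the number of cells and a change of RNA per cell cannot be told apart. Mki67, a marker of cycling cells, stood at 909 ± 86.5 and 1226 ± 143 CPM in WT and KO (log2 fold change 0.43 ± 0.11, adjusted p = 0.0537, or 0.00243 with the block).

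The tested genes with the pattern most like that of Rb1, by the Euclidean distance between log2 CPM centred on each gene's mean over the 6 libraries, were Atl2 (distance 0.0522), D6Wsu163e (0.0726) and 2310022A10Rik (0.0771), where the median of all tested genes was 0.529. Their log2 fold changes were 0.29 ± 0.07, 0.34 ± 0.08 and 0.30 ± 0.07, and 2310022A10Rik passed, at an adjusted p of 0.0444. Atl2 and D6Wsu163e passed with the block only (adjusted p = 0.0112 and 0.0196). Nearest to E2f8 were Tube1 (0.0700), 6330409D20Rik (0.0758) and Gm10518 (0.0881), with log2 fold changes of 0.33 ± 0.10, 0.36 ± 0.23 and 0.38 ± 0.16. None of these passed in the fit on group, and Tube1 did with the block (adjusted p = 0.0163). All were picked for likeness over these same libraries, so fold changes near those of Rb1 and E2f8 follow from the choice.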

How the data were processed

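The deposited values are raw counts of reads, 1 row per gene symbol and 1 column for each of the 6 libraries. TopHat2, HTSeq and GRCm38 are named, per the submitters' processing notes; the sources used here give no version, annotation or strand setting. Columns named Ctrl were matched to WT titles by number, and 0 columns were left unmatched. Rows of the counting tool that name no gene were left out: 50.4% to 51.9% of all reads lay in no feature, 9.14% to 10.2% aligned more than once and 0.498% to 0.520% were ambiguous.

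Counts were analysed with edgeR 4.0.16 in R 4.3.3: filterByExpr (minimum count 10, minimum total 15), TMM scaling, robust glmQLFit on group, and edgeR's quasi-likelihood F test, with Benjamini-Hochberg adjustment over 13729 genes. The SE is the one the F statistic implies. The fit was tested on simulated data. Alternatives were DESeq2 1.42.0, limma-voom 3.58.1, other scalings (RLE, or library size only) and filters, the replicate block, and omission of libraries. Ratios within a library were compared with a two-sided exact permutation test. Coordinates and lengths are from GENCODE M21 (GRCm38), promoter windows from RefSeq.

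In the titles, numbers 1 to 3 occur in WT and in KO. Same-numbered libraries had correlations of 0.58, 0.17 and 0.34 between their deviations from the mean of their group, across genes, which are not independent replicates. Each is above 0.1, so a fit with the number as a block was run beside the main fit, which is on group only. Blocked results are given where they change the call of a gene named in the text. The labels name no litter or batch behind them, and WT 2 correlated better with KO 3, at 0.29. No label ties a library to its own mouse, so p-values reflect only how far these samples spread, which may be technical. The labels mention no molecular identifiers, so the counting errors given cover read counting only.

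The members, the 7 pathway lists and the 10 marker lists were chosen with earlier results of these data known. Named genes are the 10 members, all partners, cyclins, kinases and tested CDK inhibitors, in every other pathway list the 4 genes of smallest p, the 3 genes nearest in pattern to each of the 2 members with the smallest p, and Rpl22l1. Some of these genes are not reported here. Other genes were named after their values were seen.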

Additional observations from a re-analysis of the deposited data

How the results depend on the processing

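Rb1 kept its direction under the 14 alternatives run and its call under both other scalings, both other filters, DESeq2, limma-voom, the replicate block and omission of both number 1 libraries. The count of the 10 family genes that passed was 2 with no count filter, 3 with the replicate block and 3 without both number 1 libraries; E2f8 was the gene added with no count filter. Over all genes, 628 passed, against 1222 with DESeq2, 1037 with no count filter, 2785 with the replicate block and 2881 without both number 1 libraries. Leaving out 1 library at a time gave 0 to 3 family genes and 109 to 2177 genes overall.

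For the partners (0 passed) the count was 3 with DESeq2, 1 by library size alone, 1 with at least 5 CPM, 1 with no count filter, 6 with the block and 5 without both number 1 libraries (0 to 6 over single omissions). For cyclins and kinases (0) it was 2, 1, 4 and 4 with DESeq2, no count filter, the block and without both number 1 libraries (0 to 4). For CDK inhibitors (0) it was 2 with the block and 1 without both number 1 libraries (0 to 1). For G1/S targets (3) it was 16 with DESeq2, 1 with limma-voom, 12 with no count filter, 30 with the block and 28 without both number 1 libraries (0 to 27). For late genes (8) the same settings gave 26, 4, 18, 27 and 28 (1 to 29). For death genes (3) it was 5 without both number 1 libraries (2 to 4), and for cofactors (1) it was 2 with DESeq2, 2 with no count filter, 4 with the block and 4 without both number 1 libraries (0 to 3). The cause was not tested.

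Direction reversed, never past the threshold, for genes near 0: E2f2 was −0.032 without KO 2 and −0.032 without KO 3, E2f4 0.009 without WT 3, E2f5 0.049 without WT 1 and 0.039 without KO 2 (ranges over single omissions −0.032 to 0.175, −0.054 to 0.009 and −0.152 to 0.049), and Rbl2 −0.013 by library size alone. Lin52 was 0.022 without KO 1 (range −0.065 to 0.022) and 0.041 without both number 1 libraries, and Cdk4 −0.003 by library size alone. Cdkn1b was 0.001 with no count filter, 0.011 with limma-voom, 0.006 with the block, 0.18 without WT 1, 0.037 without KO 3 (range −0.132 to 0.18) and 0.14 without both number 1 libraries. Where an omission left 2 libraries in a group, the spread was estimated with the other group.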
